A study of Rattus norvegicus with 8 samples.

Results

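The 10 genes that encode the transforming growth factor-β (TGF-β) ligands, their receptors and the latent TGF-β binding proteins were followed in outflow veins of arteriovenous fistulas (AVF) under vehicle or β-aminopropionitrile (BAPN) scaffolds. They were 3 ligands (Tgfb1, Tgfb2, Tgfb3), 3 receptors (Tgfbr1, Tgfbr2, Tgfbr3) and 4 latent binding proteins (Ltbp1, Ltbp2, Ltbp3, Ltbp4). They were chosen by gene name and matched to the names in the count files, where each name stood for 1 gene. All 10 were found among the 32623 listed genes, and all 10 were among the 11682 genes tested. The rule itself used no measured value, but the set was chosen with earlier results of these libraries known.

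TGF-β is made as a precursor whose propeptide stays wrapped around the growth factor, and in this latent form it cannot reach its receptors. Most latent binding proteins tie that complex to fibrillin and fibronectin fibers of the extracellular matrix (ECM), where integrins and proteases can release the active ligand. Released ligand is held by the type II receptor, which recruits and activates the type I receptor, and SMAD proteins carry the signal to the nucleus. In vein walls this signal is best known for driving myofibroblast differentiation and collagen deposition.

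The veins came from male and female Sprague Dawley rats 21 days after a fistula was made with the epigastric vein, and no age was given. All rats had a bilayer nanofiber scaffold wrapped around the vein close to the anastomosis. In 4 rats (BAPN 1 to 4) the scaffold carried BAPN, a drug that blocks lysyl oxidases, the enzymes that crosslink fibers of collagen and elastin. The other 4 rats (Vehicle 1 to 4) had the scaffold without the drug. BAPN 1 to 3 and Vehicle 1 and 2 were female, and BAPN 4 and Vehicle 3 and 4 were male. There was 1 library per rat, no vein without a scaffold was among them, and each library holds RNA of the whole vein wall.

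Reads counted on genes came to 45039451 to 52241007 per BAPN library and 19548203 to 22442050 per vehicle library. Even the smallest BAPN library was thus 2.01 times as deep as the largest vehicle library, and the treatment cannot be told apart from a step of library making that differed with it. The smallest count of any of the 10 genes in a library was 747 reads (Tgfb2 in Vehicle 2, a counting error of 3.66%), so the spread between rats and not counting limited the precision. Markers of smooth muscle, endothelium and fibroblasts were found in every library, and no marker matched by name was at 0 in all 8. Of the listed markers, Pecam1 (endothelium) and Myh1 and Myh2 (skeletal muscle) were not found by name among the listed genes. The 6 endothelial markers summed to 451 to 590 normalized counts on a common library size (CPM) with BAPN and 709 to 1475 CPM with vehicle, without overlap, and 2 of the 6 tested fell (Vwf and Tek). The smooth muscle markers summed to 1436 to 3998 CPM with BAPN and 2981 to 5633 CPM with vehicle, and 4 of 7 fell (Myh11, Cnn1, Smtn and Lmod1). Of the macrophage markers 0 of 7 passed the test in edgeR, and they summed to 2914 to 3696 CPM with BAPN and 2112 to 3205 CPM with vehicle. Of the T cell markers 2 of 6 rose (Cd2 and Cd8a), and of the 2 B cell markers tested Cd79b rose (log2 fold change 2.55, edgeR FDR 0.0458). Of the fibroblast markers 1 of 7 fell (Cd34), and 1 had a positive log2 fold change (Pi16, 0.12, edgeR FDR 0.814). Of the adipocyte markers 1 of 4 fell (Plin1), and 1 had a positive one (Fabp4, 0.70, edgeR FDR 0.269). The 5 adipocyte markers summed to 1060 to 2925 CPM with BAPN and 436 to 1694 CPM with vehicle. Over all tested genes 9.25% fell and 7.5% rose at an edgeR FDR below 0.05. The 5 B cell markers summed to 139 to 178 CPM in BAPN 1 to 3 and 6.49 CPM in BAPN 4, against 11.4 to 35.3 CPM with vehicle. Ribosomal protein genes took 2.81% to 4.17% of the reads with BAPN and 1.92% to 2.57% with vehicle, without overlap. Mitochondrial genes took 7.80% in BAPN 3 and 6.89% in BAPN 4, against 4.46% to 5.41% in the other libraries. BAPN 2 and Vehicle 2 stood apart from the others by milk protein and mammary transcripts, which summed to 121.9 and 123.7 CPM against at most 28.8 CPM elsewhere.

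Of the 10 genes, 5 were lower in BAPN-treated veins by edgeR's quasi-likelihood test at a false discovery rate (FDR) below 0.05, and these were Ltbp4, Tgfb3, Ltbp3, Tgfbr3 and Tgfbr2. The background was 16.8% of all tested genes called in either direction, 9.25% called lower and 7.5% called higher. Among the 10, 0 were called higher by edgeR or DESeq2, and 0 were higher at an unadjusted p below 0.05. Members of this set, the called ones among them, had been named by the study from the same libraries, so the count is not independent evidence of a direction. The median log2 fold change of the 10 was -0.66, against 0.02 over all tested genes. DESeq2 called the same 5, where it called 27.4% of all tested genes. With sex as a covariate only Ltbp4 and Tgfbr3 were called by edgeR (FDR 0.0816 to 0.0934 for the other 3), and without BAPN 2 and Vehicle 2 all but Tgfbr2 were. The BAPN and vehicle libraries did not overlap in Tgfbr2, Tgfbr3 and Ltbp4, all lower with BAPN. Over all tested genes, 24.7% had no overlap between the groups and 11.9% had none and were lower. Since these are bulk libraries, fewer cells that express a gene and less of its RNA per cell cannot be told apart. Leaving out BAPN 3, BAPN 4 or Vehicle 1 left only Ltbp4 of the 10 called. The part of the marker levels and of the ribosomal protein and mitochondrial shares in these differences was not tested.

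**Figure D1:**
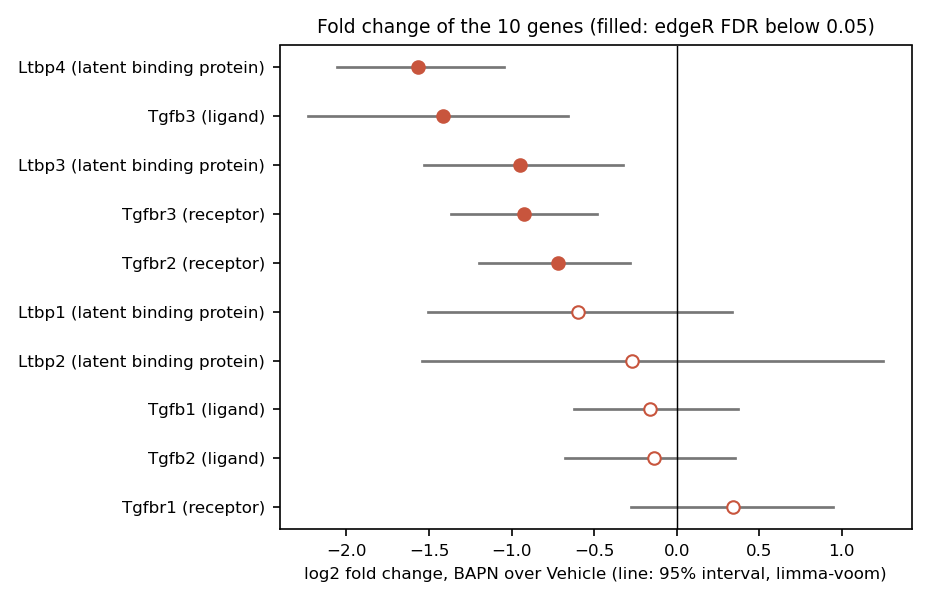
Log2 fold change of BAPN over vehicle on the x axis for each of the 10 genes on the y axis, ordered by size, with the 95% interval from limma-voom as a line and n = 4 rats in each group. Filled circles mark the 5 genes with an edgeR FDR below 0.05, from -1.57 for Ltbp4 to -0.72 for Tgfbr2, and the intervals of the 5 open circles all cross 0.

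All 3 classes held called and uncalled genes. Of the ligands 1 of 3 was called lower (median log2 fold change -0.16), of the receptors 2 of 3 (median -0.72) and of the latent binding proteins 2 of 4 (median -0.77). Levels are given below as CPM after TMM normalization. They can be compared between rats for 1 gene but not between genes, since the lengths of the transcripts were not used.

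Promoters are shown here for the gene with the largest decrease (Ltbp4), for the only ligand that was called (Tgfb3), and for one neighbor of each on the chromosome that was not called (Tgfb1 and Ltbp2). Each line gives the 250 bases before the annotated start of the gene in RefSeq, assembly GRCr8, which may be another build than the one behind the counts. Capitals mark GC boxes (GGGCGG), to which Sp1-type factors are known to bind, and SMAD boxes (CAGAC), the short element to which SMAD proteins are known to bind. Both are marked on either strand.
Ltbp4, chr1:91759808-91760057, minus strand: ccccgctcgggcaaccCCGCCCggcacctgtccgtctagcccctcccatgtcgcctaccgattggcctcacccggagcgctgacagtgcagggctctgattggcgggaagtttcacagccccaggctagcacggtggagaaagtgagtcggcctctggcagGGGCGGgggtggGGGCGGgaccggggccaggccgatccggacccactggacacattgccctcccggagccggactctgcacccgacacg
Tgfb1, chr1:90324062-90324311, plus strand: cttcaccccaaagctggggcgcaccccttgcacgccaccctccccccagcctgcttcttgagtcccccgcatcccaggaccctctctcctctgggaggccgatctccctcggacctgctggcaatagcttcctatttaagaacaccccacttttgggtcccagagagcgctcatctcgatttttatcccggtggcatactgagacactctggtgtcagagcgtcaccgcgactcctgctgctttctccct
Tgfb3, chr6:111456947-111457196, minus strand: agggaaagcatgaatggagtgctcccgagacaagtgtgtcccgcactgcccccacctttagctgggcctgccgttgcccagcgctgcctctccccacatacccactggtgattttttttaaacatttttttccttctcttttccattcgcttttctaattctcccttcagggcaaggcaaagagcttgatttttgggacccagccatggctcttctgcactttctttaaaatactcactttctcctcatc
Ltbp2, chr6:110257299-110257548, minus strand: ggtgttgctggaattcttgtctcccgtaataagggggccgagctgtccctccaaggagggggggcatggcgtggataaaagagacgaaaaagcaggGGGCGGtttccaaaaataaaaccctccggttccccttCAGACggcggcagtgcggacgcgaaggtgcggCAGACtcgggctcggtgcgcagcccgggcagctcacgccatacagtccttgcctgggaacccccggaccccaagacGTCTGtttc

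Ltbp4 and Tgfb1 both lie on chromosome 1 with 30 protein-coding genes between them, and Tgfb3 and Ltbp2 both lie on chromosome 6 with 20 between them. In these windows Ltbp4 had 3 GC boxes and no SMAD box, Ltbp2 had 3 SMAD boxes and 1 GC box, and Tgfb1 and Tgfb3 had neither. All 10 genes matched a 300-base window that adds 50 bases after the start. A GC box stood in 6 of the 10 windows (Tgfbr1, Tgfbr2, Tgfbr3, Ltbp2, Ltbp3 and Ltbp4) and in 33.1% of all 33469 RefSeq windows. A SMAD box stood in 2 of 10 (Ltbp1 and Ltbp2) and in 50.1% of all windows. Of the 5 genes called lower, 4 had a GC box and 0 had a SMAD box. The GC content of the windows ran from 47.7% in Tgfb3 to 74.7% in Tgfbr1, with a median of 51.7% over all windows. These are matches of letters in short windows and are not measured binding.

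Among the ligands, Tgfb3 fell while Tgfb1 and Tgfb2 did not pass the test. Tgfb3 (ENSRNOG00000009867), an isoform made largely by mesenchymal cells, was at 80.6, 200.3, 89.2 and 86.5 CPM in BAPN 1 to 4 and at 287, 163, 356 and 409 CPM in Vehicle 1 to 4. BAPN 2 lay above Vehicle 2, and the other 3 BAPN libraries lay below all vehicle libraries. The BAPN mean was 37.5% of the vehicle mean, at a log2 fold change of -1.41 (SE 0.35, edgeR FDR 0.0318, DESeq2 FDR 0.000856). The call held without BAPN 2 (-1.84) or Vehicle 2, and was lost without any other single rat (FDR 0.065 to 0.0897). By the exact two-sided permutation test over the 70 ways to divide 8 rats into 4 and 4, p was 0.0571 for Tgfb3, and the smallest p this design allows is 0.0286.

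Tgfb1 (ENSRNOG00000020652), the isoform most tied to fibrosis, was at 335, 313, 380 and 415 CPM with BAPN and at 397, 539, 419 and 261 CPM with vehicle. All 4 BAPN libraries lay inside the range of the vehicle libraries. The log2 fold change was -0.16 with a 95% interval from -0.62 to 0.37 (edgeR FDR 0.601), so a decrease of the size seen for Tgfb3 lies outside it. Tgfb2 (ENSRNOG00000002418), the isoform known for its part in heart and valve development, was at 34.5, 58.6, 38.7 and 28.8 CPM with BAPN and at 43.0, 36.9, 39.0 and 57.6 CPM with vehicle. Its groups overlapped over nearly their whole range, at a log2 fold change of -0.14 (95% interval -0.68 to 0.35, edgeR FDR 0.694).

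**Figure D2:**
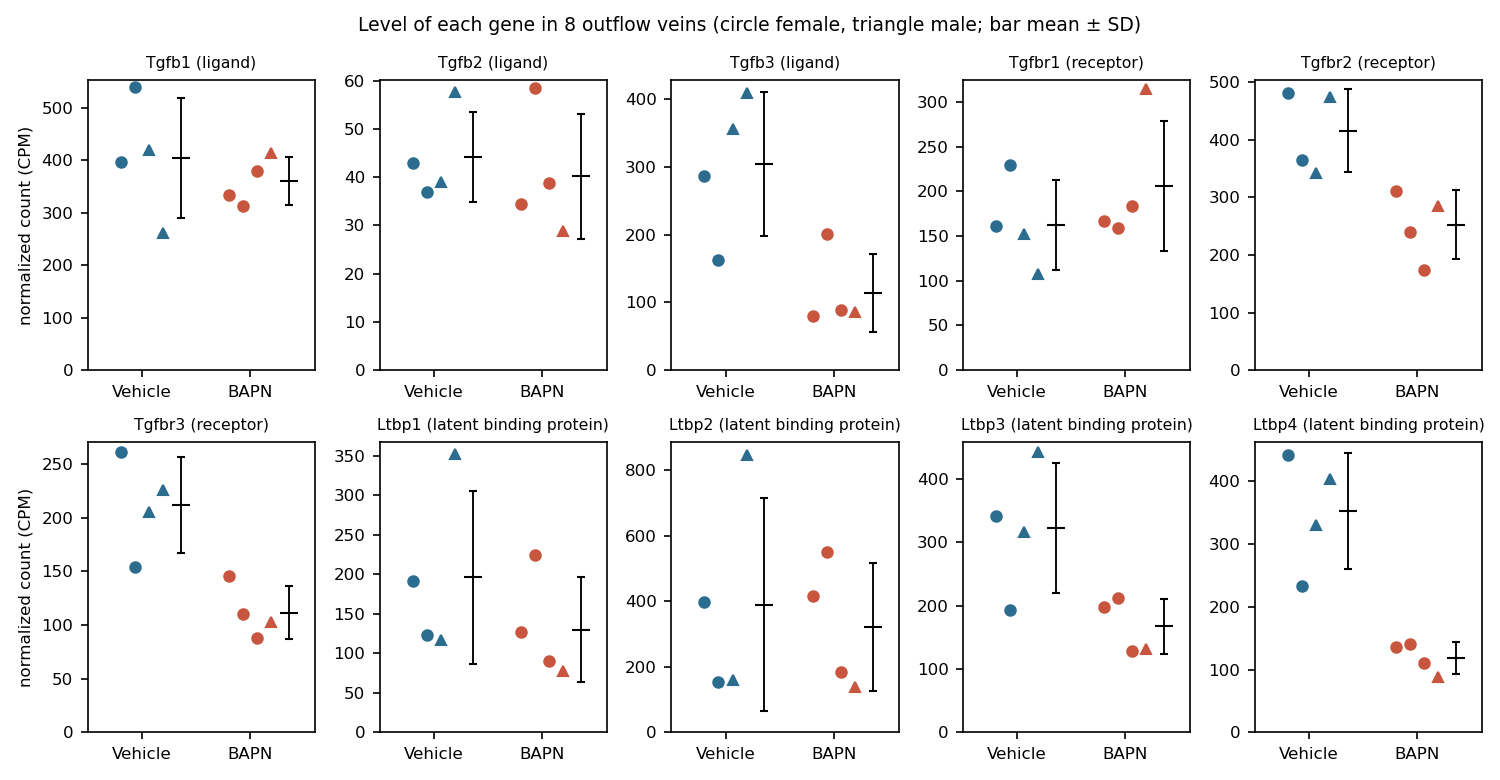
Normalized count in CPM on the y axis, starting at 0, for the 10 genes in the 4 vehicle (blue) and 4 BAPN (red) libraries, in the order 1 to 4, with circles for females, triangles for males and the mean ± SD (n = 4) beside each group. The groups do not overlap in Tgfbr2, Tgfbr3 and Ltbp4, a single BAPN library reaches 200.3 CPM in Tgfb3, and a single BAPN library reaches 314 CPM in Tgfbr1.

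Among the receptors, Tgfbr2 and Tgfbr3 fell and Tgfbr1 did not pass the test. Tgfbr3 (ENSRNOG00000002093), also called betaglycan, presents ligand to the type II receptor and is needed most for TGF-β2. It was at 145.5, 110 (BAPN 2), 87.8 and 102 CPM with BAPN and at 261.5, 154.5, 205 and 226 CPM with vehicle, and the highest BAPN library lay below the lowest vehicle library. The log2 fold change was -0.93 (SE 0.20, edgeR FDR 0.0199) and the exact two-sided permutation p was 0.0286. Without BAPN 3, BAPN 4 or Vehicle 1 the call was lost (FDR 0.0542, 0.0505 and 0.0583), with log2 fold changes between -1.08 and -0.81 over all 8 omissions.

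Tgfbr2 (ENSRNOG00000013265), the type II receptor kinase that binds ligand first, was at 311, 240.5, 174 and 284 CPM with BAPN and at 481, 364, 342 and 474 CPM with vehicle. The groups did not overlap, and BAPN 1 and Vehicle 3 were the nearest to each other. The mean with BAPN was 60.8% of that with vehicle, at a log2 fold change of -0.72 (SE 0.20, edgeR FDR 0.0424), and the exact two-sided permutation p was 0.0286. Leaving out BAPN 1 or Vehicle 2 kept the call, and leaving out any other single rat did not (FDR 0.0535 to 0.111). Without BAPN 2 and Vehicle 2, the libraries with milk protein transcripts, the FDR was 0.079.

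Tgfbr1 (ENSRNOG00000007036), the type I receptor kinase that phosphorylates SMAD2 and SMAD3, was the only one of the 10 with a higher mean under BAPN. It was at 167, 159, 184 and 314 CPM with BAPN and at 162, 229, 153 and 107 CPM with vehicle. BAPN 4 was high and the other 3 BAPN libraries lay within the vehicle range. With a 95% interval from -0.28 to 0.95 the log2 fold change was 0.34 (edgeR FDR 0.393), and leaving out BAPN 4 brought it to 0.05. Among the females alone it was -0.20.

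Among the latent binding proteins, Ltbp4 and Ltbp3 fell and Ltbp1 and Ltbp2 did not pass the test. Ltbp4 (ENSRNOG00000020871), known for its part in elastic fiber assembly and as a carrier of latent TGF-β1, was at 136, 142, 110 (BAPN 3) and 87.7 CPM with BAPN. With vehicle it was at 442, 233, 331 and 404.5 CPM, so that the lowest vehicle library lay well above the highest BAPN library. The mean with vehicle was 2.97 times that with BAPN, at a log2 fold change of -1.57 (SE 0.23, edgeR FDR 0.00863), and the exact two-sided permutation p was 0.0286. Of the 10 genes it was the only one called without each of the 8 rats in turn (FDR 0.00471 to 0.0301). Only 1.2% of tested genes had a log2 fold change as low as that of Ltbp4 or lower.

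Ltbp3 (ENSRNOG00000020813), a carrier of latent TGF-β known from bone and teeth, was at 197.5, 212, 129 and 132 CPM with BAPN and at 341, 193, 316.5 and 442 CPM with vehicle. Vehicle 2 lay among the BAPN libraries, and the other 3 vehicle libraries lay above all of them. The log2 fold change was -0.95 (SE 0.27, edgeR FDR 0.0409), and the exact two-sided permutation p was 0.0857. The call held without BAPN 2 or Vehicle 2 and was lost without any other single rat (FDR 0.0576 to 0.108).

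Ltbp1 (ENSRNOG00000033090), the best studied carrier of latent TGF-β in the ECM, was at 127, 225, 90.7 and 77.1 CPM with BAPN and at 191, 123, 117 and 352.5 CPM with vehicle. Vehicle 4 stood above all others, and the groups overlapped. The log2 fold change was -0.60 with a 95% interval from -1.5 to 0.33 (edgeR FDR 0.333). It was -0.15 without Vehicle 4 and -1.01 without BAPN 2. Ltbp2 (ENSRNOG00000012094), which binds fibrillin microfibrils and not latent TGF-β, was at 416.5, 551, 183 and 137 CPM with BAPN and at 396.5, 154, 159 and 845 CPM with vehicle. It had the widest spread of the 10 in both groups on the log2 scale. Its log2 fold change was -0.27 (95% interval -1.54 to 1.25, edgeR FDR 0.772) and turned to 0.44 without Vehicle 4, and the interval takes in a change as large as that of Ltbp3 in either direction.

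**Figure D3:**
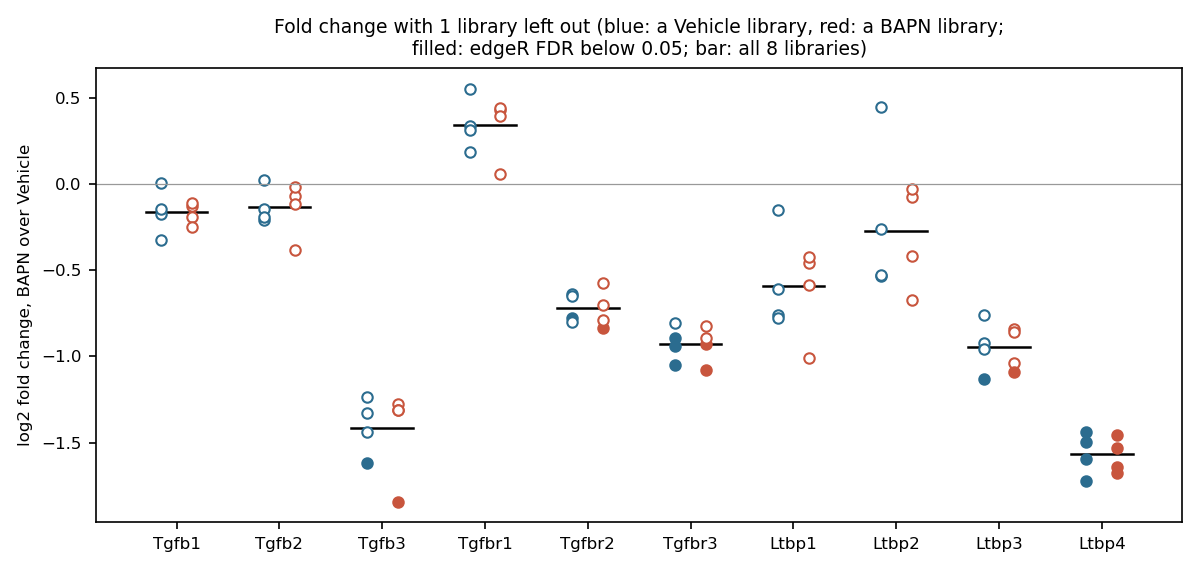
Log2 fold change of BAPN over vehicle on the y axis for each gene on the x axis with 1 library left out, blue where a vehicle library and red where a BAPN library was left out, filled where the edgeR FDR was below 0.05, with a bar at the value from all 8 libraries. The 8 points of Ltbp4 are all filled, between -1.72 and -1.44, and the open points of Ltbp2 reach from -0.68 to 0.44.

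The 10 genes did not all move the same way among the rats of a group. With group means removed, Pearson's r between pairs ran from -0.909 (Tgfb1 and Ltbp3) to 0.967 (Ltbp1 and Ltbp2). It was 0.897 for Ltbp3 and Ltbp4 and 0.876 for Tgfb1 and Tgfbr1. In 6 of the 10, Vehicle 2 was the lowest vehicle library, and in the pair Tgfb1 and Tgfbr1 it was the highest. Vehicle 4 was the highest vehicle library in 5 genes and the lowest in Tgfb1 and Tgfbr1. Within the BAPN group, BAPN 2 was the highest in 6 genes and the lowest in Tgfb1 and Tgfbr1, and BAPN 4 was the lowest in 4 and the highest in Tgfb1 and Tgfbr1. Tgfb1 and Tgfbr1 thus shared both their highest and their lowest rat in each group. The macrophage marker sum was highest among vehicle rats in Vehicle 2 (3205 CPM) and low in Vehicle 3 and 4 (2132 and 2112 CPM), and among BAPN rats it was lowest in BAPN 2 (2914 CPM) and highest in BAPN 1 (3696 CPM). The list did not run as one, since Cd68 was lowest among vehicle rats in Vehicle 4 (376 CPM) and C1qa and Adgre1 were highest there (434 and 124 CPM). The part of these cells in the levels of Tgfb1 and Tgfbr1 was not tested.

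Ratios within a library do not depend on the scaling of that library, and were compared within each class without a test. Tgfb3 to Tgfb1 reads stood at log2 ratios of -2.06, -0.64, -2.09 and -2.26 with BAPN and -0.47, -1.72, -0.23 and 0.65 with vehicle. The means differed by -1.32, while BAPN 2 and Vehicle 2 lay in the range of the other group. Of all reads on the 3 ligands, Tgfb1 took 54.7% to 78.2% with BAPN and 35.9% to 72.9% with vehicle. Tgfb3 took 16.3% to 35.0% with BAPN and 22.1% to 56.2% with vehicle.

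For the type I over the type II receptor, Tgfbr1 to Tgfbr2, the log2 ratios were -0.90, -0.60, 0.08 and 0.14 with BAPN and -1.57, -0.67, -1.16 and -2.14 with vehicle. The mean was higher by 1.07 with BAPN, and Vehicle 2 lay above the lowest BAPN library. Tgfbr3 to Tgfbr2, both of which fell, differed by only -0.19. Among the latent binding proteins, Ltbp4 to Ltbp1 stood at 0.10, -0.67, 0.28 and 0.19 with BAPN and 1.21, 0.92, 1.5 and 0.20 with vehicle, with means that differed by -0.98. Vehicle 4 was the vehicle library that overlapped with the BAPN group. Of all reads on the 4 latent binding proteins, Ltbp4 took 12.5% to 21.4% with BAPN and 19.8% to 35.8% with vehicle, and Ltbp2 took 31.6% to 48.8% with BAPN and 17.2% to 41.3% with vehicle.

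**Figure D4:**
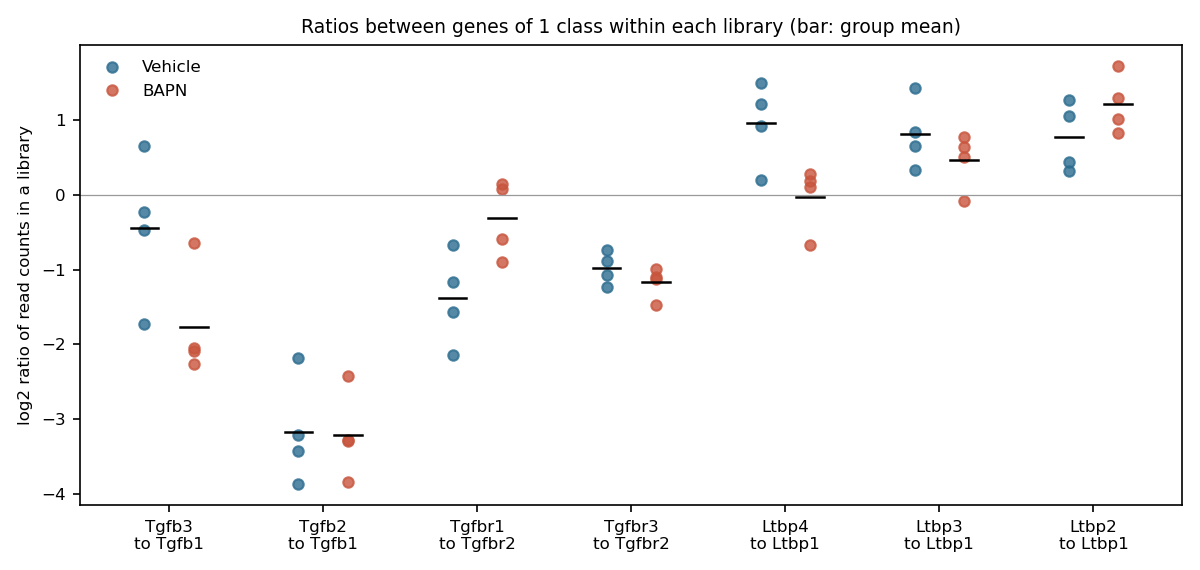
Log2 ratio of the read counts of 2 genes of a class in the same library on the y axis, for 7 pairs on the x axis, with a point for each of the 4 vehicle (blue) and 4 BAPN (red) libraries and a bar at the group mean. The largest differences between means are those of Tgfb3 to Tgfb1 (-1.32), Tgfbr1 to Tgfbr2 (1.07) and Ltbp4 to Ltbp1 (-0.98), and the groups overlap in all 7 pairs.

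The named genes whose log2 CPM ran most like those of the 10 genes over the 8 libraries were found by Pearson's r, which includes the difference between the groups and libraries of unequal depth. Nearest to Ltbp4 was Tek, the angiopoietin receptor of endothelial cells (r = 0.997), then Tcf7l1 (r = 0.993). Ltbp3 ran most like Mxra7 (r = 0.992) and the hedgehog co-receptor Boc (r = 0.991), and Tgfb3 most like Paqr6 and Mrvi1 (r = 0.978 for both). Tgfbr2 ran most like Eps15 and Nav1 (r = 0.994 for both), and Tgfbr3 most like Spen (r = 0.987). Of the genes that were not called, Tgfbr1 ran most like Gde1 (r = 0.992) and Cd180, a surface protein of B cells and macrophages (r = 0.983). Tgfb1 ran most like Tmem108 (r = 0.974), Tgfb2 most like Lmcd1 (r = 0.987), Ltbp1 most like Cemip2 (r = 0.981) and Ltbp2 most like Pdia4 (r = 0.989).

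Beyond the 10 genes, 70 of 77 genes in lists of TGF-β release, matrix anchoring, reception, signaling and response were tested. Of these, 10 were called and all 10 were lower, or 14.3% against the 16.8% of all tested genes, with a median log2 fold change of -0.36. DESeq2 called 16, and 1 of them was higher (Timp1, an inhibitor of matrix metalloproteinases, edgeR FDR 0.0839). With each of the 8 rats left out in turn, Mmp14 and Acvrl1 lost the call in 7 of 8 fits, Lrrc32 and Mfap2 in 6, Acvr2a in 5, Smad7 and Ski in 4, Itgb5 in 3, Tgfb1i1 in 2 and Gdf10 in 0. With sex as a covariate 3 of the 10 were called.

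Of 11 genes of ligand release, 3 fell in edgeR. Lrrc32, which holds latent TGF-β at cell surfaces, had a log2 fold change of -0.96 (edgeR FDR 0.0299). The integrin subunit Itgb5 had one of -0.65 (edgeR FDR 0.0242), and the membrane protease Mmp14 one of -0.78 (edgeR FDR 0.0432). The integrin subunit Itgav, the partner of Itgb5, stood at -0.75 and missed the threshold in edgeR (FDR 0.0619), while DESeq2 called it (FDR 0.019). The protease Mmp2 and the integrin subunit Itgb1 stood at -0.55 (FDR 0.235) and 0.16 (FDR 0.521). Thbs1, an activator of the latent complex, was at 2044 CPM in Vehicle 4 and at 184 to 365 CPM in the other vehicle libraries, against 216 to 712 CPM with BAPN. Of 9 genes of the matrix anchor the microfibril protein Mfap2 fell in edgeR (log2 fold change -1.17, edgeR FDR 0.0353). DESeq2 also called Fbn2 (fibrillin-2), which stood at -1.14 (edgeR FDR 0.118, DESeq2 FDR 0.0451). Fbn1 (fibrillin-1) stood at -0.70 (FDR 0.173) and Fn1 (fibronectin) at -0.06 (FDR 0.905).

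Of the 4 proteoglycans that trap TGF-β, 0 passed the test in edgeR or DESeq2, and 0 had an unadjusted p below 0.05 (log2 fold change -0.30 for decorin, Dcn, and -0.65 for biglycan, Bgn). Of 7 accessory receptors Acvrl1, a type I receptor known from endothelial cells, fell by 0.43 on the log2 scale (edgeR FDR 0.0309). Its co-receptor Eng stood at -0.49 (FDR 0.17). Of 14 intracellular genes, Smad7, the inhibitory SMAD that blocks the type I receptor, had a log2 fold change of -1.08 (edgeR FDR 0.0269), and the co-repressor Ski one of -0.82 (edgeR FDR 0.0299). The signal carriers Smad2, Smad3 and Smad4 stood at 0.07, -0.37 and -0.36 and did not pass the test.

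Of 19 genes known to respond to TGF-β, 2 fell, and these were Smad7, which is itself such a target, and Tgfb1i1 (log2 fold change -0.83, edgeR FDR 0.0205), a focal adhesion protein that the study named from the same libraries. Col1a1, a chain of collagen I, stood at -1.0 (edgeR FDR 0.118, DESeq2 FDR 0.0278), and at -0.55 without Vehicle 4, -0.67 with sex as a covariate and -0.17 among females alone. Ccn2, a matricellular protein that TGF-β is known to induce, stood at -0.11 (FDR 0.883), and its direction turned without Vehicle 4 (0.52). Of 9 genes of activins and their antagonists, Gdf10 (log2 fold change -2.17, edgeR FDR 0.00876) and the activin receptor Acvr2a (-0.52, edgeR FDR 0.0293) fell. Gdf10 was also named by the study, so neither it nor Tgfb1i1 is an independent choice. Fstl1, a follistatin-like protein, stood at -0.76 (FDR 0.13).

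**Figure D5:**
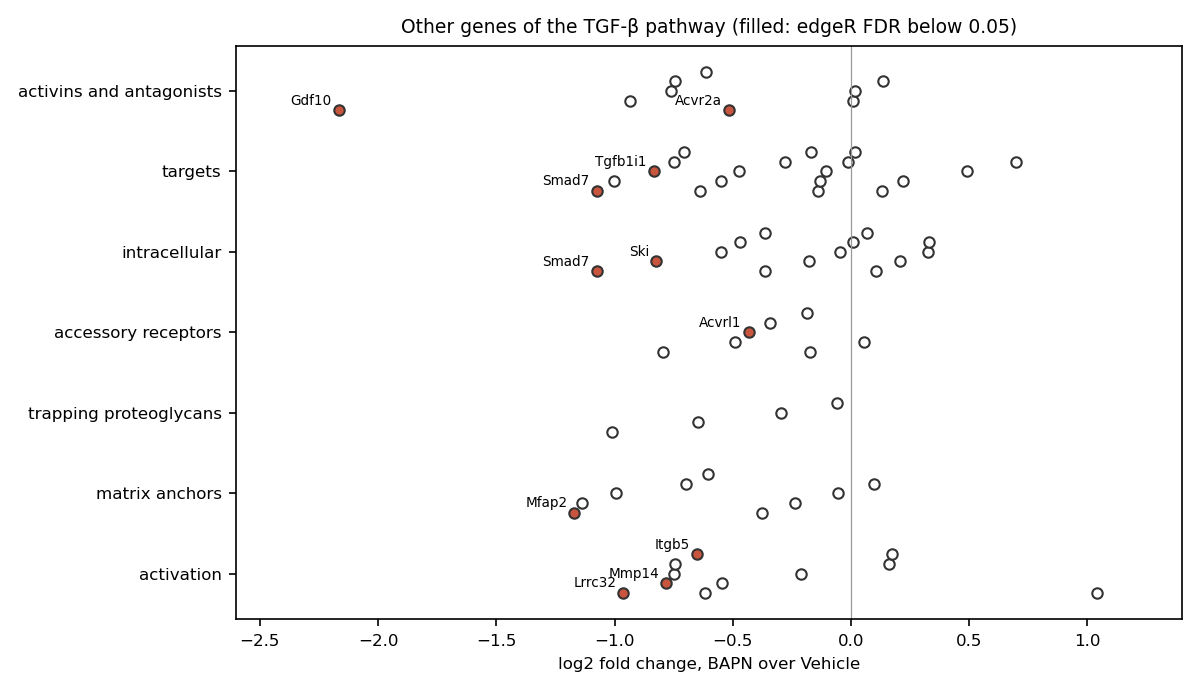
Log2 fold change of BAPN over vehicle on the x axis for the 70 tested genes of 7 TGF-β lists on the y axis, with filled, named circles for genes with an edgeR FDR below 0.05. The 10 called genes all lie left of 0, between -2.17 for Gdf10 and -0.43 for Acvrl1, and Smad7 is drawn in 2 lists.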

How the data were processed

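Total RNA of 8 outflow veins was depleted of ribosomal RNA and made into stranded libraries. Per the submitters' processing notes, bcl2fastq 2.17, Trim Galore and STAR were used. The counting tool, its strand setting, the genome build and the annotation are not given in the sources used here, so coordinates come only from RefSeq (GRCr8) and it is unknown how reads of overlapping genes were counted. The authors deposited whole-number read counts per gene for 32623 genes, without normalization, and these counts were used as deposited.

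Genes with a base mean (mean of counts over DESeq2 1.42.0 size factors) of at least 100 were tested, as the study's methods exclude lower ones, which left 11682. The main test was edgeR 4.0.16 (TMM, quasi-likelihood, no covariates) under R 4.3.3, with Benjamini-Hochberg adjustment over the 11682 genes and an FDR threshold of 0.05. Fold changes are edgeR's, and standard errors and 95% intervals came from limma 3.58.1 (voom). Log2 CPM used a prior count of 2. Single genes were also compared by an exact two-sided permutation test over 70 arrangements. On simulated counts with 200 of 11682 genes raised or lowered by 1.5 (log2), the test found 171 and made 7 false calls.

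Groups, sexes and replicate numbers came from the labels. Replicates were separate rats, and all pairs within a group differed by more than sampling noise. The 10 genes, the pathway and marker lists and the rules for named genes were chosen with earlier results of these data known. All 10 were named, with their 2 most similar named genes at most, every called pathway gene, and others of the lists (among them Ccn2, Thbs1, Itgav, Timp1 and the SMAD genes) chosen after their values were seen. Smad7, Skil and Fstl3 were listed under 2 headings. The values of 1 listed target gene are not reported here. Alternatives were DESeq2, other scalings, filters and equal library totals, a term for sex, the females by themselves, a block for the replicate number, and each library left out. Leaving out both libraries numbered 2 was added after seeing the data. A GC or length correction was not run, and protein sequences were not used here.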

Additional observations from a re-analysis of the deposited data

Results flagged for a closer look

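A gap test (Dixon's, at its 95% critical value) was run on the CPM of the 10 genes in both groups. That makes 20 groups of 4, and chance alone flags about 1 group in 20. The test was not run on log2 CPM, where the gaps can differ. It marked 2 libraries. Tgfb3 in BAPN 2 was at 200.3 CPM against 80.6 to 89.2 CPM in the other BAPN libraries, and the gap took up 0.928 of the range of the group. BAPN 2 also had the most smooth muscle transcripts of the BAPN libraries (a marker sum of 3998 CPM against 1436 to 2054 CPM) and 121.9 CPM of milk protein and mammary transcripts, and their part in this level was not tested. Tgfbr1 in BAPN 4, the only male of the BAPN group, was at 314.2 CPM against 159 to 184 CPM, and the gap took up 0.839 of the range. Sex cannot be told apart from this 1 rat.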

How the results depend on the processing

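Among the 10 genes, the same 5 were called lower (from edgeR unless named) with DESeq2, with DESeq2 size factors, with total counts as the only scaling, and with libraries thinned to equal totals of 19548203 reads. Tgfbr2 was lost with filterByExpr (FDR 0.0511) and with no filter on low counts (FDR 0.0636), and without both libraries numbered 2 (FDR 0.079). With sex as a covariate 2 of the 10 were called (Ltbp4 and Tgfbr3), with the replicate number as a block 3 (Ltbp4, Tgfbr2 and Tgfbr3), and with each rat left out 1 to 5. Among females alone, 3 against 2, 0 were called by edgeR, 3 had an unadjusted p below 0.05 (as had 2863 of all 11682 tested genes), and the log2 fold changes were -1.38 for Ltbp4 (FDR 0.0746), -0.87 for Tgfb3 (FDR 0.255), -0.86 for Tgfbr3 (FDR 0.138), -0.80 for Tgfbr2 (FDR 0.138) and -0.57 for Ltbp3 (FDR 0.279). Over all tested genes the count of 1957 was 3202 with DESeq2, 930 with sex, 89 in females, 556 with the block, and 397 (without Vehicle 1) to 2215 (without Vehicle 2) with each rat left out. Of the pathway lists, 10 genes were called, against 16 with DESeq2, 3 with sex, 1 in females, 3 with the block, 1 to 15 with each rat left out, and 16 without both libraries numbered 2. The 3 of 10 genes whose groups did not overlap became 3 to 5 with each rat left out. Leaving out a rat can only keep or raise this count for any genes. The share over all tested genes was not counted in these fits, so the rise says nothing of the 10. The numbers do not pair the rats (correlations of same-numbered rats 0.094, -0.265, 0.269 and -0.14), and only number 3 correlated best with its own number.

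Of the 10 genes and the pathway genes run under the alternatives, these turned direction, and none of them had been called. In females Tgfb2 stood at 0.14, Tgfbr1 at -0.20, Ltbp2 at 0.48, Thbs1 at 0.67 and Ccn2 at 0.94. With the block Thbs1 stood at 0.0615, Fn1 at 0.0064 and Ccn2 at 0.08, and with sex Ccn2 stood at 0.28. Without Vehicle 4 Tgfb2 stood at 0.0199, Ltbp2 at 0.44, Thbs1 at 0.80, Fn1 at 0.11 and Ccn2 at 0.52. Without Vehicle 2 Tgfb1 stood at 0.006, and at 0.0574 without both libraries numbered 2. Fn1 stood at 0.03 without BAPN 3 or Vehicle 1, and Ccn2 at 0.01 without BAPN 3. With each rat left out, the lowest values of these genes were -0.33 for Tgfb1, -0.39 for Tgfb2, -0.68 for Ltbp2, -0.94 for Thbs1, -0.25 for Fn1 and -0.41 for Ccn2. The difference in the Tgfb2 to Tgfb1 log2 ratio (-0.04) was 0.54 in females and -0.30 to 0.29 with each rat left out. In females that of Tgfb3 to Tgfb1 was -0.50, that of Tgfbr1 to Tgfbr2 0.65 and that of Ltbp4 to Ltbp1 -1.16. The causes were not tested. At these depths (lowest count 747) the number of rats, not counting, limits the 10 genes.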
